A study of Mus musculus with 6 samples.

Results

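A set of 40 mouse genes that drive or restrain cell division was examined in NKT cells of the thymus. The cells were sorted by whether they carry CD103 on the surface. The genes were listed by name and comprised 10 cyclins and cyclin-dependent kinases, 7 cell cycle inhibitors, Rb and E2F genes, 11 genes of DNA replication and nucleotide supply, and 12 genes of mitosis. In the annotation used here 38 of the 40 had a probe of their own, with 85 probes in all, and Mki67 and Ccnb1 had none. Of these 38 genes, 32 gave a signal above background on at least 3 of the 6 arrays and could be compared, out of 8999 genes measured in this way. The other 6 are given by their detection only.

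NKT cells are T lymphocytes that recognise lipids presented by CD1d. Mature cells, defined by CD44 and NK1.1, came from the thymus of male C57BL/6 mice, and the populations differed in the surface integrin CD103 alone as far as the labels state. Each of the CD103+ and CD103- populations was measured on 3 Illumina bead arrays, called biological replicates in the design text. The labels name no age, no agent and no altered allele for either population, and the title of the series concerns DOCK8, a regulator of actin in lymphocytes. Since nothing else states that the samples came from separate mice, the p-values measure the spread between these samples, which may be in part technical.

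A dividing cell passes from growth into DNA synthesis when cyclins and their kinases inactivate Rb and so free the E2F factors, and inhibitors such as p27 hold that step back. E2F factors then turn on genes of the replication machinery, while a later wave of genes for spindle and chromosome proteins is switched on before mitosis. In the thymus most dividing cells are immature thymocytes, and mature NKT cells with NK1.1 are known to divide little.

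Itgae, the gene of CD103, stood at log2 values of 13.43, 13.80 and 13.57 on CD103+ arrays 1, 2 and 3 and at 8.61, 9.07 and 8.94 on CD103- arrays 1, 2 and 3, so the arrays went with their labels (limma, adjusted p = 9.5e-05). The T cell genes Cd3e and Cd3d were detected on all 6 arrays. The arrays differed in brightness, with mean signals of 501.6 to 825.9 in CD103+ and 276.5 to 526.2 in CD103-, before normalization. All levels below are log2 values after background correction and quantile normalization, differences are CD103+ minus CD103-, and an error given after ± is an SD over 3 arrays.

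No member passed the test between the populations. At an adjusted p under 0.05 (limma, Benjamini-Hochberg over 17462 probes), 0 of 32 members were called, where 1.38% of all measured genes were called. At an unadjusted p under 0.05 there were 3 members, beside 14.2% of all genes. Of these, Cdk2 and Tk1 were on the lower side, beside 5.23% of genes, and Mad2l1 was on the higher side, beside 8.95%. The median difference over the 32 members was 0.02, with 17 positive and 15 negative values between -0.72 and 0.55, and over all measured genes it was 0.05. In 29 of 32 members the difference was under 0.5 log2 units in size. For 25 of 32 members the 95% interval lay within a 2-fold change either way, as it did for 82.2% of all genes, so that for the other 7 (Cdk1, Cdkn1a, Cdkn1b, Rrm2, Tk1, Top2a and Bub1b) a 2-fold difference lay inside the interval. With bulk RNA, fewer dividing cells and less RNA per dividing cell cannot be told apart.

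**Figure D1:**
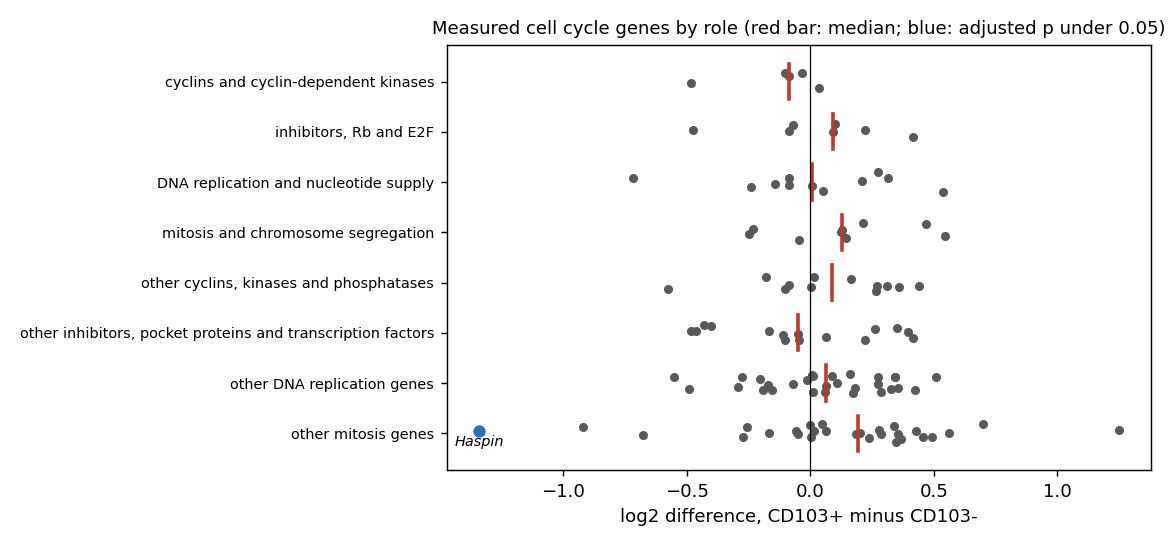
Log2 difference (CD103+ minus CD103-) on the horizontal axis for the 32 measured members in 4 role groups (upper rows) and for 84 other cell cycle genes (lower rows), 1 point a gene (spread vertically at random within its row), with a red bar at each median and blue for an adjusted p under 0.05. All members lie between -0.72 and 0.55 on both sides of 0, and Haspin, outside the member groups, is the only blue point.

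Detection asked a simpler question, namely whether a transcript rose above the negative controls (detection p under 0.05) at all. With each gene read from its brightest probe, 31 of 38 members were detected on all 3 CD103+ arrays, beside 44.3% of the genes with a probe. On all 3 CD103- arrays 29 of 38 members were detected, beside 38.5% of genes, and these 29 were detected on all 6 arrays. Rrm2 and Aurkb made the difference between the counts: each was detected on all 3 CD103+ arrays, Rrm2 on 1 CD103- array and Aurkb on 2. That pattern held for 6.18% of all genes, and the opposite pattern for 0.430% of genes and for no member. Array by array, 31, 33 and 31 members were detected in CD103+ and 31, 30 and 33 in CD103-. Without CD103- array 2, the count in CD103- was 31, through Aurkb and Cdkn1a, and Rrm2 was still not among them.

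Of the 6 members that could not be compared, Ccnb2, Cdk6 and Bub1 were detected on no array. Ccne1, the cyclin E that acts at entry into DNA synthesis, was detected on CD103+ array 2 only. Ccna2, the cyclin A of DNA synthesis and mitosis, was detected on CD103- array 2 only, and Ube2c, an enzyme that marks mitotic cyclins for destruction, on CD103- array 3 only. No fold is given for these genes.

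Known control elements of cell cycle genes lie in their promoters, and 5 promoters are printed as examples that hold such letters. The mouse promoters are those of RefSeq (GRCm38.p6), found for 34 of the 40 members, and were searched on both strands over the 250 bases before the start. The letters looked for were TTTGAA, a core of the cell cycle homology region known from late-cycle genes, and CCAAT, known from many promoters. Forms of the E2F site were also looked for, namely TTCCCGC and TTGGCGC and TTCGCGC and TTGCCGC. Printed below are the 150 bases before the start, 5′ to 3′ along the strand of the gene, with each match on either strand in capitals. The genes are Top2a (chr11:99024190-99024339, minus strand) and Cdc20 (chr4:118437344-118437493, minus strand) from mitosis, Mcm5 (chr8:75109359-75109508, plus strand) and Mcm6 (chr1:128359706-128359855, minus strand) from replication, and Cdk2 (chr10:128705052-128705201, minus strand).
Top2a: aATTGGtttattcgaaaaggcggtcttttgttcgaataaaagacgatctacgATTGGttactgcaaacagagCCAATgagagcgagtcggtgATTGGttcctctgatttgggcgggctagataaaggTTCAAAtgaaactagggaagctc
Cdc20: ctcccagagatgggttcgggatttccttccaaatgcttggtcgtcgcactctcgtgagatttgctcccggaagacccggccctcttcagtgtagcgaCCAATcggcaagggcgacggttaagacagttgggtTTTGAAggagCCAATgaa
Mcm5: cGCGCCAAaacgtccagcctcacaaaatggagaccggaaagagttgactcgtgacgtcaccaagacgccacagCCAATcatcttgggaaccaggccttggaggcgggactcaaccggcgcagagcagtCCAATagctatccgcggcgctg
Mcm6: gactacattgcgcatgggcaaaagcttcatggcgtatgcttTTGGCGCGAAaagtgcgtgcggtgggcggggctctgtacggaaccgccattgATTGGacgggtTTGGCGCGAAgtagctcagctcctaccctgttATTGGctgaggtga
Cdk2: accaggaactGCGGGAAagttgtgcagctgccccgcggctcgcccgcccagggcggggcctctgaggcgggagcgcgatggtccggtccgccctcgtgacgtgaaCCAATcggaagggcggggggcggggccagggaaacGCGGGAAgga

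In the printed stretches Top2a held 1 TTTGAA match (as its complement TTCAAA) and 4 CCAAT matches, and Cdc20 held 1 and 2. Mcm6 held 4 E2F matches, which form 2 overlapping pairs on opposite strands, Mcm5 held 1 and Cdk2 held 2. Over the full 250 bases, CCAAT was found in 23 of 34 members and in 34.5% of 27025 mouse promoters. E2F letters were found in 10 of 34 members, among them 5 of 10 replication genes and 1 of 10 mitosis genes, and in 7.97% of all promoters. TTTGAA was found in 7 of 34 members, of which 4 were among the 10 mitosis genes, and in 16.3% of all promoters. These are counts of letters, and binding was not measured.

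The brightest and the dimmest gene of each role group were picked by mean signal, which does not compare amounts of transcript between genes. Among cyclins and kinases, 5 of 10 genes were measured and their median difference was -0.09. Ccnd2, a D-type cyclin that couples growth signals to the cycle and the brightest of this group, read 12.40, 12.75 and 13.01 on CD103+ arrays 1, 2 and 3 and 13.11, 12.46 and 12.67 on CD103- arrays 1, 2 and 3. The populations overlapped, and the difference was -0.03 (SE 0.230, adjusted p = 0.960, limma). Ccnb2, a B-type cyclin of mitosis and the dimmest of this group, read 4.65, 4.67 and 4.51 in CD103+ and 4.57, 4.53 and 4.44 in CD103-, below detection on all arrays. Cdk1, the kinase that starts mitosis, read 6.90, 5.80 and 7.02 in CD103+ and 6.39, 5.78 and 7.44 in CD103-. Array 2 was the lowest in both populations, and the difference of 0.04 had an SE of 0.477 (limma, adjusted p = 0.979).

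Cdk2, the kinase partner of cyclins E and A, read 10.26, 10.21 and 10.42 in CD103+ and 10.76, 10.65 and 10.93 in CD103-. Every CD103+ array lay below every CD103- array, and the level was 1.40-fold lower in CD103+ (log2 difference -0.48, SE 0.148). It did not pass the test after adjustment (limma, adjusted p = 0.202). The gene has 4 measured probes, and their differences ran from -0.60 to -0.20, all on the same side. Cdk4 and Ccnd3, which act together early in the cycle, differed by -0.10 and -0.09, with overlapping populations.

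Cdk2 and Tk1 were singled out after their values were seen, since their populations did not overlap. Mad2l1 and Cdkn2d were the other measured members of that kind. In all, 4 of 32 members had populations that did not overlap, beside 23.2% of all measured genes, with 2 higher (14.5% of genes) and 2 lower (8.72% of genes) in CD103+. Median scaling, under which the median difference of all measured genes was 1.03, gave Cdk2 a difference of 0.67 and Tk1 one of 0.29, both below that median.

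All 7 genes of the inhibitor, Rb and E2F group were measured. Rb1, the gatekeeper that binds E2F and the brightest of the group, read 9.80, 9.83 and 9.43 in CD103+ and 9.86, 9.65 and 9.25 in CD103-. The populations overlapped, and a further probe of Rb1 gave a difference of -0.47 where the brightest gave 0.10. Cdkn1b, which encodes the p27 inhibitor of resting lymphocytes, read 8.89, 9.46 and 8.94 in CD103+ and 8.04, 9.86 and 9.66 in CD103-. CD103- array 1 was the lowest of the 6 and the other CD103- arrays were the highest, so the mean difference of -0.09 carried an SE of 0.464 (limma, adjusted p = 0.944).

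Cdkn1a, which encodes the p21 inhibitor induced by p53 and was the dimmest of the group, read 5.05, 5.43 and 4.84 in CD103+ and 5.42, 4.79 and 6.53 in CD103-. It was detected on 1 CD103+ array and on 2 CD103- arrays, and the difference was -0.47 (SE 0.416, adjusted p = 0.631, limma), with CD103- array 3 the highest of the 6. Cdkn2d, the p19 inhibitor of Cdk4 and Cdk6, read 7.97, 8.32 and 8.01 in CD103+ and 7.76, 7.36 and 7.93 in CD103-. Every CD103+ array was above every CD103- array, at 8.10 ± 0.193 against 7.68 ± 0.291 (n = 3 each), but the difference of 0.42 did not pass (limma, adjusted p = 0.374). Cdkn2c, E2f1 and E2f2 differed by -0.07, 0.22 and 0.09, with overlapping populations.

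All 11 replication genes were measured, 6 with a positive and 5 with a negative difference. Mcm4, a subunit of the helicase that unwinds DNA and the brightest of the group, read 11.98, 11.78 and 11.88 in CD103+ and 11.75, 11.81 and 11.92 in CD103-. Its populations overlapped within 0.3 log2 units, the difference being 0.05 (SE 0.139, adjusted p = 0.887, limma). The other Mcm subunits, whose promoters for Mcm5 and Mcm6 are printed above, differed by -0.24 (Mcm3) to 0.01 (Mcm7). Pcna, the sliding clamp of the DNA polymerases, read 9.91, 9.81 and 9.56 in CD103+ and 9.70, 9.50 and 9.45 in CD103-. These overlapped too, with a difference of 0.21 (SE 0.158, adjusted p = 0.575, limma).

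Tk1, the thymidine salvage kinase of dividing cells, read 6.75, 6.65 and 7.31 in CD103+ and 7.60, 7.40 and 7.86 in CD103-. All 3 CD103+ arrays were below all 3 CD103- arrays, and the difference of -0.72 was the most negative of any member (1.64-fold lower, SE 0.220). After adjustment it did not pass (limma, adjusted p = 0.205). Rrm2, a subunit of ribonucleotide reductase and the dimmest of the group, read 6.19, 5.43 and 6.20 in CD103+ and 5.14, 5.02 and 6.06 in CD103-. The difference was 0.54 (SE 0.331, adjusted p = 0.490, limma), with CD103- array 3 inside the CD103+ range. Tyms and Rrm1, which make further DNA precursors, differed by 0.32 and 0.28 with overlapping populations.

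Of the 12 mitosis genes 9 were measured, and their median difference was 0.13. Mad2l1, a spindle checkpoint protein and the brightest of the group, read 8.36, 8.68 and 8.35 in CD103+ and 7.84, 7.81 and 8.09 in CD103-. The populations did not overlap and the level was 1.46-fold higher in CD103+ (difference 0.55, SE 0.163). This was the lowest adjusted p among the members' brightest probes at 0.196 (limma), and a further Mad2l1 probe gave 0.70 with an adjusted p of 0.158. Bub1, another checkpoint gene and the dimmest of the group, read 4.72, 4.67 and 4.67 in CD103+ and 4.77, 5.48 and 5.20 in CD103-, below detection on all arrays.

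Top2a, the topoisomerase that untangles chromosomes, read 6.99, 6.31 and 7.57 in CD103+ and 7.64, 6.28 and 7.65 in CD103-. The lowest array of each population was array 2, and the difference of -0.23 had an SE of 0.450 (limma, adjusted p = 0.839). Stmn1, which destabilises microtubules, differed by 0.47 (SE 0.221, adjusted p = 0.374, limma), with overlapping populations. Birc5, Aurka, Aurkb, Plk1, Bub1b and Cdc20, which serve the kinetochore, the spindle and the exit from mitosis, differed by -0.25 (Aurka) to 0.21 (Bub1b). All of these 6 had overlapping populations.

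**Figure D2:**
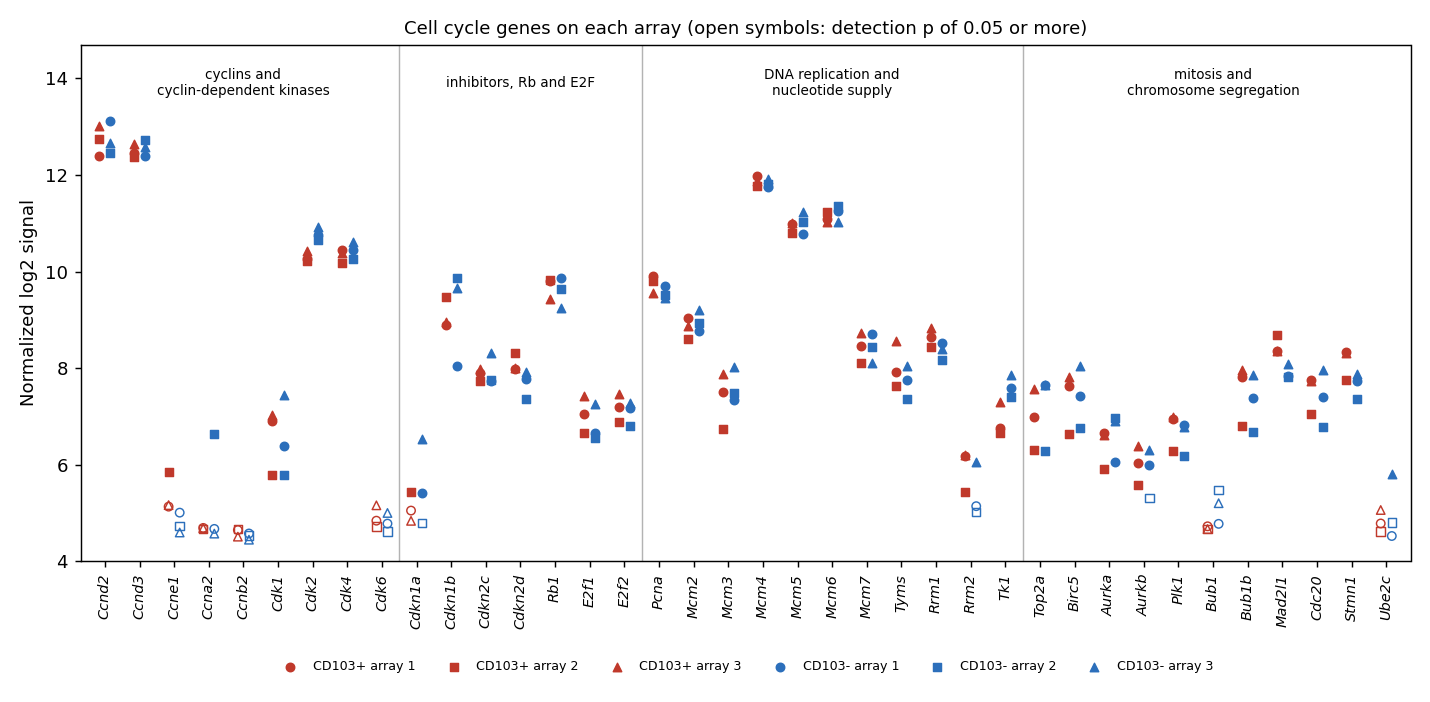
Normalized log2 signal of the 38 members with a probe, by role group, with 1 symbol for each of the 6 arrays (CD103+ red, CD103- blue, open where the detection p was 0.05 or more). Among measured genes, red and blue symbols overlap for most and stand apart for Cdk2, Tk1, Mad2l1 and Cdkn2d. They also stand apart for Ccne1 and Bub1, which were not compared and whose symbols are mostly or all open.

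**Figure D3:**
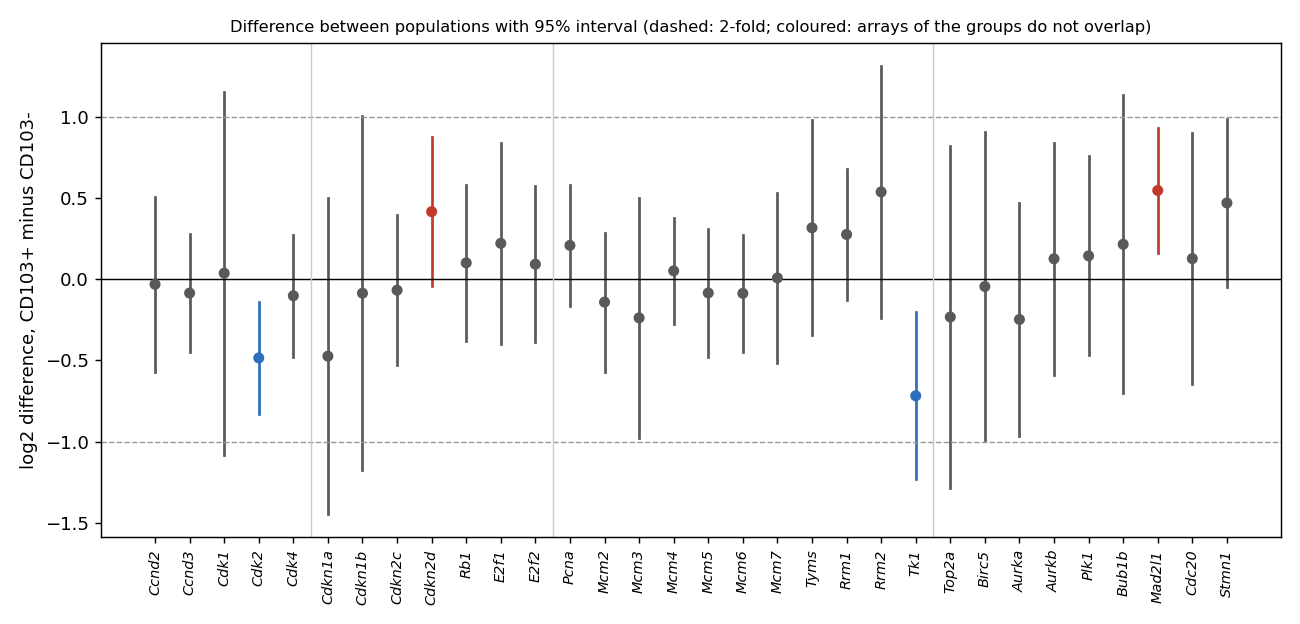
Log2 difference (CD103+ minus CD103-) of each of the 32 measured members, by role group, with its 95% interval from limma, dashed lines at 2-fold and colour where the populations do not overlap. Most intervals cross 0, and the 3 that do not (Cdk2, Tk1 and Mad2l1) belong to genes with adjusted p of 0.196 to 0.205.

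When arrays of the same number were set against each other, CD103+ was above CD103- for all 3 numbers in 12 of 32 members, beside 26.7% of all genes. These were Cdkn2d, E2f1, E2f2, Pcna, Tyms, Rrm1, Rrm2, Aurkb, Plk1, Bub1b, Mad2l1 and Stmn1. CD103+ was below CD103- for all 3 numbers in Cdk2 and Tk1, 2 of 32 members, beside 17.4% of all genes.

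Probes of the same gene did not always give the same answer. Of 17 members with at least 2 measured probes, 10 had differences of 1 sign and 7 had both signs. Over all 60 measured probes of the members, 8 had an unadjusted p under 0.05, beside 15.1% of all probes. They included further probes of Mcm4 (0.92), Mcm6 (0.79) and Tyms (0.96), whose brightest probes gave 0.05, -0.09 and 0.32. Of the 60, 0 passed after adjustment, where 1.18% of all probes did, with the lowest adjusted p at 0.158 (limma).

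Within each population most of the mitosis genes moved together from array to array. This was noticed after the values were seen and is given as a description. Array 2 was the lowest of its population in both CD103+ and CD103- for 7 of the 9 measured mitosis genes, all but Aurka and Mad2l1. That was so for 16 of all 32 members and for 14.0% of all measured genes. Aurka and Mad2l1 went the other way in 1 population each. Aurka was highest on CD103- array 2 (6.05, 6.96 and 6.90 on CD103- arrays 1, 2 and 3). Mad2l1 was highest on CD103+ array 2 (8.36, 8.68 and 8.35 on CD103+ arrays 1, 2 and 3). Averaged over the 9 genes, the deviation from each gene's mean was 0.22, -0.39 and 0.35 on CD103+ arrays 1, 2 and 3 and -0.02, -0.49 and 0.33 on CD103- arrays 1, 2 and 3. The mean deviation of all measured genes is held near 0 by the normalization and is no contrast to this. The cyclins and kinases and the replication genes also had their lowest mean on array 2 of both populations, at -0.29 and -0.17 and at -0.23 and -0.12. The median SE of the differences of the 9 mitosis genes was 0.307, and that of all genes was 0.184. When arrays of the same number were treated as pairs, these SEs were 0.155 and 0.158, and 0 of 32 members were called, where 0.611% of genes were.

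**Figure D4:**
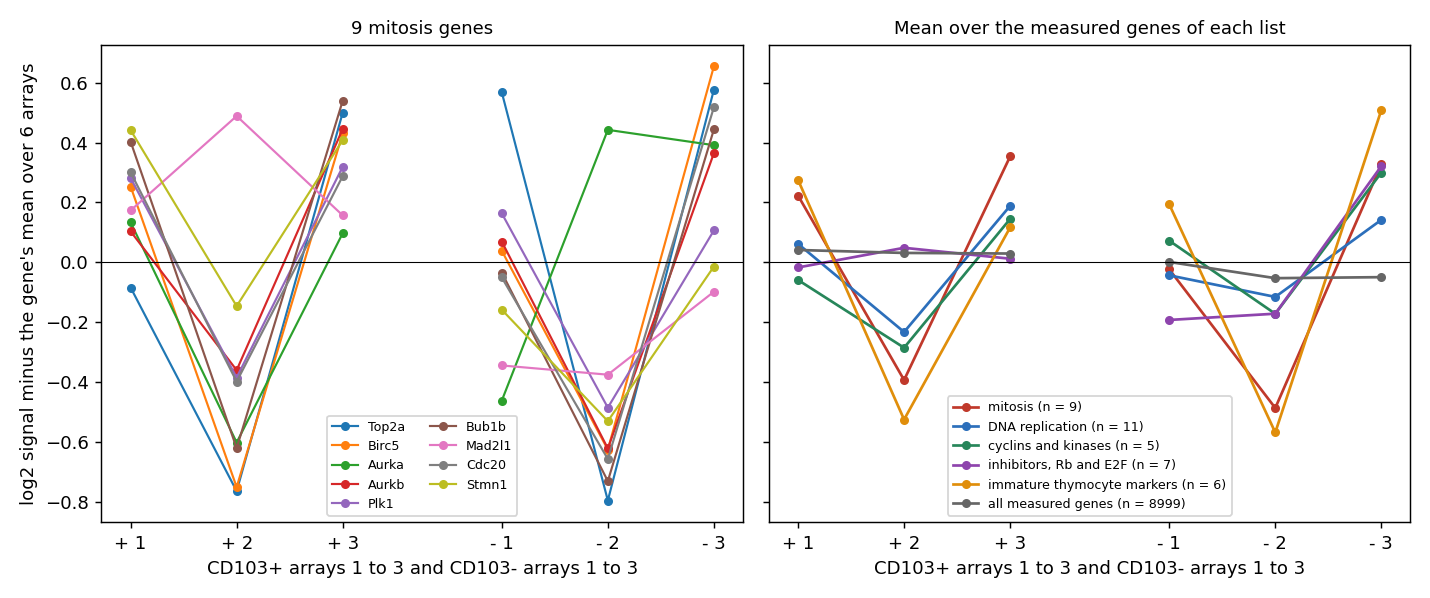
Log2 signal minus the gene's mean over 6 arrays, for each of the 9 measured mitosis genes (left) and averaged over the role groups, immature thymocyte markers and all measured genes (right), by array. The means of mitosis genes, replication genes, cyclins and kinases, and thymocyte markers are lowest on array 2 of both populations (-0.39 and -0.49 for mitosis), and the line of all genes is held near 0 by the normalization.

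Markers of immature thymocytes, the main dividing cells of the thymus, also had their lowest mean on array 2 of both populations. The macrophage markers given below did so too. Of 9 such markers 6 were measured (Cd8b1, Cd4, Rag1, Dntt, Cd1d1 and Themis), and 4 of these, Rag1, Dntt, Cd1d1 and Themis, were lowest on array 2 of both populations. Their mean deviation was 0.28, -0.53 and 0.12 on CD103+ arrays and 0.19, -0.57 and 0.51 on CD103- arrays. Their summed normalized signal was 2030 to 2528 in CD103+ and 2599 to 2923 in CD103-. Most of that sum came from Cd8b1 alone (difference -0.38, SE 0.147, adjusted p = 0.296, limma). Further measured probes of Cd8b1 were lowest on array 2 of both populations, which its brightest probe was not. The mean deviations of the populations overlapped, 2 of the 6 differences were positive and 4 negative, and 0 of the 6 passed the test. Cd8a and Rag2 were detected on no array. CD103+ array 2 was the brightest of the 6 before normalization, and CD103- array 2 was among the dimmest. The part of thymocytes in the levels of the mitosis genes was not tested.

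Markers of macrophages, which engulf dying cells in the thymus, differed between the populations. Of 12 such markers, 9 were measured. Cd68 had no probe, Marco was detected on CD103- array 3 only and Mertk on CD103+ array 3 only. Of the 9 measured, 8 were higher in CD103+ at an adjusted p under 0.05 (limma), beside 1.16% of all genes, Csf1r being the exception. With the replicate block 6 were called, and C1qa and Mpeg1 had adjusted p of 0.0565 and 0.0885 (limma). C1qa, C1qb, C1qc, Adgre1, Apoe and Vcam1 were detected on no CD103- array and entered the test through the CD103+ arrays alone. Their calls are therefore not independent of the filter. With undetected CD103- values raised to the lowest detected signal, these genes were at least 1.56-fold (C1qa) to 8.73-fold (Vcam1) higher in CD103+. The summed signal was 2759 to 3517 in CD103+ and 279.5 to 331.4 in CD103-, where most of the measured markers were below detection. The markers' mean deviation was also lowest on array 2 of both populations. It was 1.71, 1.07 and 1.52 on CD103+ arrays and -1.38, -1.59 and -1.33 on CD103- arrays. Lowest there in both were 4 of the 9 (C1qa, C1qb, Adgre1 and Vcam1), beside 14.0% of all genes. Of 5 B cell markers 1 (Cd79b) was measured and did not pass, and of 4 markers of thymic epithelium 0 were measured. The part of other cells in the levels of the members was not tested.

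A further list of 117 cell cycle genes, outside the 40, was read for comparison. Of these, 114 had a probe and 84 were measured, with a median difference of 0.06. At an adjusted p under 0.05, 0 were higher and 1 was lower in CD103+, beside 1.16% and 0.222% of all genes. At an unadjusted p under 0.05, 3 of the 84 were on the higher side and 6 on the lower, beside 8.95% and 5.23% of all genes. Among the other mitosis genes, 13 of 28 were lowest on array 2 of both populations.

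The gene called was Haspin, a kinase that marks histone H3 at the centromere in mitosis. It read 7.78, 7.38 and 7.79 in CD103+ and 8.68, 8.96 and 9.34 in CD103-. The populations did not overlap, and the level was 2.53-fold lower in CD103+ (difference -1.34, SE 0.214, adjusted p = 0.0369, limma). Haspin lies inside the span of Itgae, the gene by which the cells were sorted, which was higher in CD103+ (difference 4.73). Which transcript the Haspin probe reads is uncertain and was not tested. The call was lost with the replicate block (adjusted p = 0.0683, limma) and when CD103+ array 1, 2 or 3 or CD103- array 2 or 3 was left out (adjusted p of 0.0744 to 0.242). The value was known from earlier results when the list was written.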

How the data were processed

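Total RNA of sorted cells was labelled as biotinylated cRNA and hybridised, per the labels' protocols. The deposited intensity values are 1 signal per probe and array, not normalized, and the deposited detection p-value beside each was taken as that against negative controls, since it fell as signal rose. A deposited table of log2 values was used as an alternative. Its column medians were 5.20, 5.18 and 5.21 in CD103+ and 5.21, 5.42 and 5.42 in CD103-, it ordered probes as the signal did, and its scaling and centring are not given in the sources used here.

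Of 45281 probes, 18 with displaced values were left out. A single gene symbol was found for 34874 of the remaining 45263, several for 18 and none for 10371. Signals were processed with neqc (offset 16) of limma 3.58.1 in R 4.3.3, and 17462 probes stayed in the tests because at least 3 of 6 arrays had a detection p under 0.05. CD103+ was compared with CD103- by lmFit and eBayes (two-sided tests), p-values being adjusted over the kept probes after Benjamini and Hochberg. For each gene the kept probe of highest mean level was read. Only the limma fit and test were tried on simulated data, with log2 values drawn independently for each array. Background correction, normalization, the filter and the choice of probes were not tried in this way. The number of arrays limits the precision: the median SE over probes was 0.195 log2 units, and an exact permutation test of 3 against 3 arrays could not go below 0.1. Promoter letters were counted in Python 3.11.15.

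The labels do not state that replicate numbers pair the arrays. Deviations from the population means correlated at 0.170, 0.125 and 0.305 for arrays of the same number and at -0.231 to 0.0824 for others. Deviations cancel out within each population, so positive values for the same number push the others down. Pairing therefore remains an assumption, made for the block and for the comparison of arrays of the same number. The main comparison had no block, and the blocked value is given where it changes a call.

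The members, gene lists and tests were chosen with earlier results of these data known. Values on every array are given for the brightest and dimmest member of each role group and for Top2a, Pcna, Cdk1, Cdkn1b and Cdkn2d, and for Cdk2 and Tk1, added after their values were seen. Other cell cycle genes are named where they passed the test. Alternatives were other background corrections, normalizations, offsets and filters, the authors' values, a trend with robust eBayes, array weights, array brightness as a covariate, the block, each array left out, CD103- array 1 as the only CD103- array, every kept probe and a stricter threshold. Chosen after seeing the data were centred versions of median scaling and of the authors' values, and the repeats of the array pattern.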

Additional observations from a re-analysis of the deposited data

How the results depend on the processing

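The count of members past the threshold was 0 under every alternative run except median scaling, which gave 16, all higher in CD103+. Median scaling also moved the median difference of the members to 1.04 and that of all measured genes to 1.03, and it turned Cdk4 to 1.06, Cdkn1b to 1.05, Mcm5 to 1.05 and Mcm6 to 1.05. With that scaling centred on the median of all probes, 0 members passed. With the authors' values the median difference of all probes was 0.134. Of 32 members, 7 kept their sign under all alternatives and 25 changed it under at least 1. Leaving out an array moved the member median between -0.07 and 0.17, and detection counts to 31 in CD103+ and 29 to 31 in CD103-. The count of probes past the threshold, 206 in all, was 315 without background correction, 7154 with median scaling (68 when centred), 313 with the authors' values, 369 with a trend and robust eBayes, 397 with array weights, 83 with the replicate block, 82 with CD103- array 1 as the only CD103- array (its spread being assumed to be that of the CD103+ arrays), 7 with array brightness as a covariate and 60 at an adjusted p of 0.01. It was 10, 21 and 10 without CD103+ arrays 1, 2 and 3, and 928, 113 and 112 without CD103- arrays 1, 2 and 3. The cause was not tested. The replicate block changed the call of no member and ended that of Haspin, which passed in 10 of 21 alternatives (adjusted p of 0.00370 to 0.646). The count of 7 mitosis genes lowest on array 2 was 7 or 8 under the other processing settings. Transcripts near background, such as Rrm2, Aurkb and Cdkn1a, are the least reliable.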
